A study of Mus musculus with 2 samples.

Results

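The genes described here are 8 that mark microglia at rest, namely Csf1r, Cx3cr1, P2ry12, Tmem119, Inpp5d, Siglech, Sall1 and Mertk. They were taken by name, 8 of the 32285 genes in the feature tables, and read in nuclei from the spinal cord after injury. Barcodes were gated as immune when Ptprc, Dock8, Apbb1ip and Arhgap15 together had at least 3 UMIs, where a UMI is 1 counted RNA molecule. The gate took 32 of 16360 barcodes of the injury core library and 360 of 7443 barcodes of the distal library. None of the 8 genes was used to choose barcodes, but the 8 were chosen with earlier results of these data known.

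Microglia are the resident macrophages of the central nervous system. In the uninjured tissue they hold a ramified, surveying form, kept up by colony stimulating factor and transforming growth factor signals, and the genes above are the usual readout of that state in mice. Activated microglia in injured or diseased tissue commonly lower several of them, and macrophages that enter from the blood express little P2ry12, Tmem119 or Sall1.

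Both libraries came from male iNeuroD1GFP mice aged 8 weeks, by the labels, whose spinal cords were injured at postnatal day 60. Tamoxifen was given to all the animals, 100 mg/kg/day on days 5 to 8 after the injury, and nuclei of 3 mice were isolated on day 10. The tissue was parted into the injury core and a second region, called distal in the titles and peri-injury in the protocol. The labels name neither the promoter that drives the transgene nor whether the mice were pooled, and no uninjured or untreated library was analysed here. Each region gave 1 library of 10x Genomics nuclear RNA, so no difference between the regions has a replicate check and no p-value is given. The 95% intervals below are exact and cover counting error only. The core library held 30469263 UMIs with a median of 1303 per barcode, and the distal library 19049572 UMIs with a median of 1743. The libraries shared 38 barcodes, of which 0 were in the core gate and 2 in the distal gate.

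The gate did not collect the same kind of barcode in both regions. It held 0.196% of core barcodes (95% interval 0.134 to 0.276) and 4.84% of distal barcodes (4.36 to 5.35), a ratio of 0.0404 (0.0272 to 0.0581; exact binomial intervals for shares). In the core gate 85 of 112 gate-gene UMIs, 75.9%, were Arhgap15. In the distal gate Arhgap15 gave 305 of 1773 gate-gene UMIs, 17.2%, beside 596 for Dock8, 466 for Apbb1ip and 406 for Ptprc, the pan-leukocyte phosphatase CD45. Each gated barcode was also ranked by the marker lists of 9 other classes. Of the 32 core barcodes, 29 were led by the neuronal list, with at least as many UMIs of it as of any other list. Another 3 were led by the list for oligodendrocyte precursors (OPC), and 0 by the gate genes themselves. Ties between lists went to the list named first, the neuronal one before all others. A tie with the gate genes was not called immune-led. Of the 360 distal barcodes, 204 were oligodendrocyte-led, 67 neuron-led, 55 immune-led, 30 OPC-led, 3 astrocyte-led and 1 endothelial-led. The immune-led barcodes were shallow, with a median of 1008 UMIs, against 6280 in the oligodendrocyte-led ones. The core barcodes named OPC-led carry that name only from the list: outside the gate they had 4 Pdgfra UMIs, against 143 in the distal ones. The neuronal RNA Meg3 stood at 15206 CPM (counts per 1000000 UMIs) in the core gate, and Trem2, Mrc1 and C1qa, markers of microglia and macrophages, had 0 UMIs there. Whole marker lists were less uniform. A list of 20 further homeostatic genes summed to 274 CPM in the core gate and 279 CPM outside it, with 8 of 20 detected in the gate, and 8 myeloid transcription factors to 265 CPM in the core gate and 169 CPM outside it, with 7 of 8 detected. The complement list had 1 UMI in the core gate, or 4.81 CPM against 3.37 CPM outside, and the border macrophage list 4 UMIs, or 19.2 CPM against 4.43 CPM outside. With no immune-led barcode in it, the core gate is called by its rule and not as microglia, and it carries too few member UMIs for any level to be precise.

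**Figure D1:**
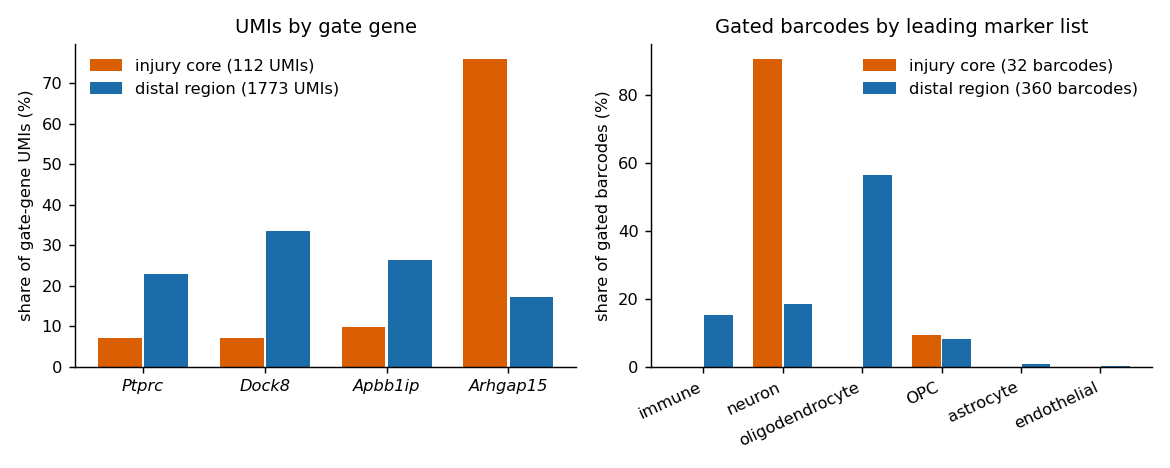
Left, share of gate-gene UMIs (%) from each of the 4 gate genes in gated barcodes of the injury core (112 UMIs) and the distal region (1773 UMIs). Right, share of gated barcodes (%) by the leading marker list of the barcode, with ties set as in the text. Arhgap15 gave 75.9% of the core gate's UMIs and 17.2% of the distal gate's, and the immune list led 0 core and 55 distal barcodes.

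Among the receptors, Csf1r, which binds the survival factors Csf1 and Il34, had 235 UMIs in the distal gate, or 92.5 CPM, and 19.8 CPM in the other distal barcodes, a ratio of 4.67 (3.93 to 5.54). Cx3cr1, the receptor for the neuronal chemokine fractalkine, stood at 83.1 CPM in the distal gate and 23.5 CPM in other barcodes, a ratio of 3.54 (2.98 to 4.20). P2ry12, the ADP receptor that guides microglial processes to damage, stood at 86.6 CPM in the gate and 37.4 CPM outside, a ratio of 2.31 (1.97 to 2.70). For all of these the intervals of gate and other barcodes did not overlap. Siglech, a sialic acid-binding lectin, had 68.5 CPM in the gate and 13.9 CPM outside, a ratio of 4.94 (4.03 to 6.04). Mertk, a receptor tyrosine kinase for the engulfment of dying cells and myelin, had 284 CPM in the gate and 80.1 CPM outside, a ratio of 3.55 (3.24 to 3.89).

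Inpp5d encodes the lipid phosphatase SHIP1, which dampens signals from immune receptors. It had 653 UMIs in the distal gate, 257 CPM against 35.1 CPM in other barcodes, and with 7.31 (6.53 to 8.19) it had the largest ratio of the 8. Tmem119, a membrane protein used to tell microglia from other macrophages, was thinly counted, with 29 UMIs in the gate at 11.4 CPM against 2.85 CPM outside, a ratio of 4.01 (2.43 to 6.50). Sall1, a zinc finger transcription factor that holds microglial identity, had 56.3 CPM in the gate and 30.7 CPM outside. Its ratio of 1.84 (1.51 to 2.21) was the smallest. So 7 of 8 members were at least 2-fold higher in the distal gate, where 3.95% of the 16688 genes with at least 20 UMIs were. As the members were chosen with earlier results of these data known, this count is a description only. The median log2 ratio was 1.92 over the members and 0.0072 over all genes tested.

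Since 7 of the members were higher together in the distal gate, with the myeloid transcription factors Spi1, Runx1, Irf8 and Mef2c, the letters of their promoters are shown for 4 members. The RefSeq promoter table for GRCm38.p6, 250 bases before to 50 after each start, holds 8 promoters of 6 members. Csf1r and Tmem119 were not matched in it. Capitals mark AGGAAGT, the core that ETS factors such as Spi1 read, in Inpp5d and P2ry12. They also mark TGTGGTT, read by Runx1, in Siglech, where it lies on the minus strand of the gene, and a loose MEF2 pattern in Cx3cr1. That pattern is CTA and TAG with 4 bases of any kind between them. In the usual MEF2 site read by Mef2c these 4 bases are A or T, and the Cx3cr1 stretch has a G among them.
Inpp5d, GRCm38.p6 chr1:87620062-87620361, plus strand: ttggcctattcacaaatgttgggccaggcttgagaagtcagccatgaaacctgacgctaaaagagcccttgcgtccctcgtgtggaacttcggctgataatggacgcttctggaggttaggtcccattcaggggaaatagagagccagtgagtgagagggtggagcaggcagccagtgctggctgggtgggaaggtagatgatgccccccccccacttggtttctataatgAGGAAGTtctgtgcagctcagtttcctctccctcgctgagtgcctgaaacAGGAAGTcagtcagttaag
P2ry12, GRCm38.p6 chr3:59262936-59263235, minus strand: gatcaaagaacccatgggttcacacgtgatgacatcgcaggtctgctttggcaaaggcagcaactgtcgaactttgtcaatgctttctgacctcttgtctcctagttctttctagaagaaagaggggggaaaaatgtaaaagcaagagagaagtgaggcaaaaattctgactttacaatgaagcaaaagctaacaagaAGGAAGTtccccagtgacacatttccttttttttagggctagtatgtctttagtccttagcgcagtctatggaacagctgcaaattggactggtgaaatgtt
Siglech, GRCm38.p6 chr7:55767934-55768233, plus strand: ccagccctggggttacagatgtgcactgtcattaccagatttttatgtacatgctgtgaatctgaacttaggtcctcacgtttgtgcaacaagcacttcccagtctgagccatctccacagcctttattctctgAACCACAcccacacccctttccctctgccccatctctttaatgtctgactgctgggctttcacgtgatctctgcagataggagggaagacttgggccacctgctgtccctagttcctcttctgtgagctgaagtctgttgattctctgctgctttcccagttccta
Cx3cr1, GRCm38.p6 chr9:120068247-120068546, minus strand: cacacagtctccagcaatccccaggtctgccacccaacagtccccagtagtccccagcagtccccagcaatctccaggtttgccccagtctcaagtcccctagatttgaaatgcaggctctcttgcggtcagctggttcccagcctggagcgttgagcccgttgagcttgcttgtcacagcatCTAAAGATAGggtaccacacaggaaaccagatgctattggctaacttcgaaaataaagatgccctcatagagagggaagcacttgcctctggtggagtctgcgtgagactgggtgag
Both strands were searched. AGGAAGT began at -19 and 32 from the Inpp5d start, at -52 in P2ry12 and at -181 in 1 of 3 Sall1 promoters, and 9.35% of all 32851 promoters hold it. TGTGGTT began at -116 in Siglech, and 5.27% of promoters hold it. The loose MEF2 pattern began at -67 in Cx3cr1, and 3.69% of promoters hold it. The IRF motif read by Irf8, GAAA repeated after 2 bases of any kind, was in none of the 8 member promoters and in 3.44% of all. The Mertk promoter held none of the 4 motifs. A match is only a match of letters, and no binding was measured.

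In the core library the same comparison rested on a handful of molecules. The core gate held 1 UMI each of Csf1r, Cx3cr1, Tmem119 and Inpp5d, 4 of P2ry12, 3 of Siglech, 2 of Mertk and 0 of Sall1. Outside the core gate the levels were 1.98 CPM for Csf1r, 5.19 for Cx3cr1, 20.8 for P2ry12, 0.231 for Tmem119, 2.61 for Inpp5d, 0.727 for Siglech, 3.87 for Sall1 and 4.69 for Mertk. Siglech was the one member whose gate-over-other interval lay above 1, with a ratio of 19.9 (3.80 to 66.1) from 3 UMIs. For P2ry12 the ratio was 0.924 (0.251 to 2.38). Of the 7 members with at least 20 UMIs, 3 passed 2-fold upward, against 9.58% of all genes, and 1, Sall1, passed downward, against 31.8%, and the intervals of Csf1r, Mertk and Sall1 included 1. The upward calls, Csf1r, Siglech and Mertk, changed with the gate and numbered 1 with Ptprc left out of the gate and 0 with Dock8 left out. A single barcode of 1120 UMIs held 2 Dock8 UMIs and 1 Ptprc UMI with 1 UMI each of Csf1r, P2ry12, Tmem119 and Inpp5d and 2 of Siglech, and no Arhgap15. The other 5 core barcodes with a member held 1 or 2 members each, and 26 of 32 held none.

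**Figure D2:**
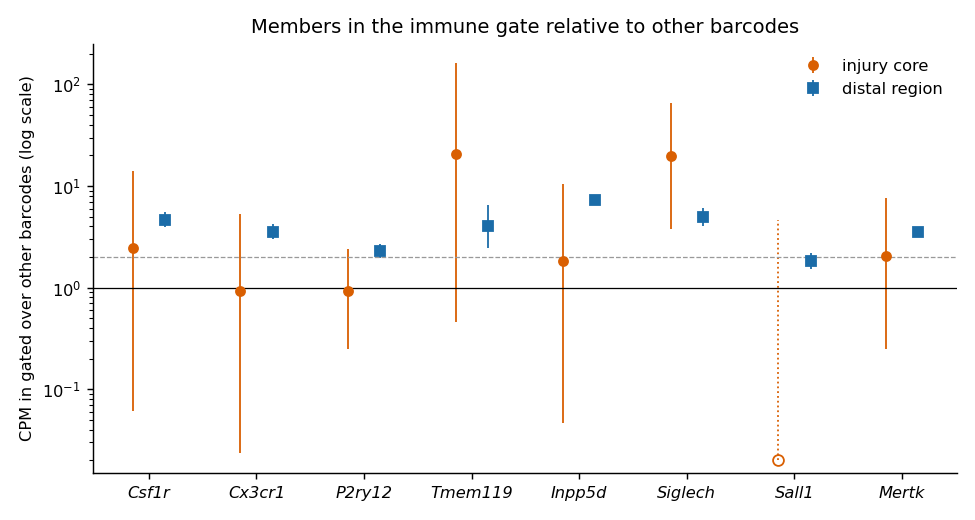
CPM in immune-gated over other barcodes of the same library for each member, on a log scale, with exact 95% intervals; the solid line is 1 and the dashed line 2. The open circle marks Sall1, which had 0 UMIs in the core gate, with the upper bound of its interval as a dotted line. In the distal region all 8 intervals lie above 1, and in the core only that of Siglech does.

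Core and distal gates were then set side by side. Members were at least 2-fold lower in the core gate for 8 of 8, where 28.8% of all genes were. The core gate held from 0 UMIs (Sall1) to 4 UMIs (P2ry12) of each member. The distal gate held from 29 UMIs (Tmem119) to 722 UMIs (Mertk). All 8 thus reached the minimum of UMIs for a call through the distal gate, and that filter favours genes that are high there. The count of 8 of 8 against 28.8% is therefore a description only. Csf1r had 4.81 CPM in the core gate and 92.5 CPM in the distal gate, a ratio of 0.0520 (0.00131 to 0.293). Inpp5d had 4.81 CPM in the core gate and 257 CPM in the distal gate, a ratio of 0.0187 (0.000473 to 0.105), and Mertk 9.62 CPM in the core gate and 284 CPM in the distal gate, a ratio of 0.0339 (0.00409 to 0.123). P2ry12 had a larger ratio, with 19.2 CPM in the core gate, 86.6 CPM in the distal gate and a ratio of 0.222 (0.0600 to 0.577). Sall1 was at 0 in the core gate and 56.3 CPM in the distal gate. A floor of 3 counts over the core gate puts it at least 3.90-fold lower, and the exact upper bound of the ratio was 0.319, a smaller difference. For Tmem119 the interval of the ratio, 0.0103 to 2.54, included 1. With Arhgap15 left out, the core gate shrank to 6 barcodes and 4 of 8 members were at least 2-fold lower. The core over distal ratio was then 0.826 for Csf1r, 0.923 for P2ry12, 3.18 for Siglech and 6.64 for Tmem119. The share of all genes was not computed for that gate.

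Over all kept barcodes the members were also lower in the core, 8 of 8 against 19.4% of all genes. The smallest ratio was that of Siglech, with 0.821 CPM in the core and 21.2 CPM in the distal region, a ratio of 0.0388 (0.0248 to 0.0581). The largest was that of P2ry12, with 20.8 CPM in the core and 44.0 CPM in the distal region, a ratio of 0.473 (0.426 to 0.525). Inpp5d had 2.63 CPM in the core and 64.7 CPM in the distal region, and Sall1 had 3.84 CPM in the core and 34.1 CPM in the distal region. Fewer nuclei of a type and less RNA per nucleus cannot be told apart in such sums. The difference was not confined to gated barcodes. In neuron-led barcodes outside the gate, 13752 in the core and 2328 in the distal region, the ratio of core to distal CPM was 0.0794 for Siglech, 0.0932 for Inpp5d, 0.104 for Mertk, 0.154 for Csf1r and 0.491 for P2ry12. All 8 intervals there lay below 1, and 8 of 8 members were at least 2-fold lower, where 11.8% of all genes were. In oligodendrocyte-led barcodes the interval included 1 for Sall1, which had 37.6 CPM in the core and 49.4 CPM in the distal region, a ratio of 0.761 (0.470 to 1.17). Mertk there had 0 UMIs in the core against 82.6 CPM in the distal region, at least 16.1-fold lower by a floor of 3 counts over that class in the core, and the exact upper bound of the ratio was 0.0765, a smaller difference. The intervals of P2ry12, 0.649 (0.319 to 1.19), and of Tmem119, with 0 UMIs in the core and an upper bound of 2.69, included 1 there too, and the other 4 lay below 1. In astrocyte-led barcodes the intervals of all 7 members with UMIs included 1, among them that of Mertk at 0.834 (0.390 to 1.59).

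The 8 genes differed in which other barcodes carried them. Mertk was also carried by astrocyte-led barcodes, at 227 CPM in the core and 272 CPM in the distal region. The distal gate over astrocyte-led ratio was 1.05 (0.864 to 1.27), an interval that includes 1, and the distal astrocyte-led over neuron-led ratio was 7.47 (5.97 to 9.30). Distal OPC-led barcodes had 134 CPM of Mertk, a ratio of 3.67 (3.06 to 4.40) to neuron-led ones. Astrocytes are known to use Mertk to engulf synapses in mice. In the core, 10 of the 144 Mertk UMIs came from the 31 astrocyte-led barcodes, a ratio of 60.0 (27.9 to 115) to neuron-led ones.

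Inpp5d and Mertk were also high in endothelial-led barcodes. Inpp5d had 8 UMIs in the 31 core barcodes of that class and 10 in the 46 distal ones, or 116 CPM in the core and 156 CPM in the distal region. Distal endothelial-led over neuron-led barcodes had an Inpp5d ratio of 7.25 (3.40 to 13.7). Csf1r, Cx3cr1, Tmem119, Siglech and Sall1 had 0 UMIs in the endothelial-led barcodes of both libraries, while Mertk had 8 UMIs there in the core and 14 in the distal region. These barcodes held only 69217 UMIs in the core and 64224 in the distal region, so a count of 0 does not show absence. Upper bounds of the distal ratio to neuron-led barcodes were 3.53 for Cx3cr1, 4.86 for Sall1, 4.99 for Csf1r, 7.83 for Siglech and 29.1 for Tmem119. The core bounds were wider.

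Sall1 was carried by several classes outside the gate. Oligodendrocyte-led barcodes had 37.6 CPM in the core, 12.4 times (7.38 to 20.1) the 3.02 CPM of neuron-led ones. In the distal region they had 49.4 CPM against 12.1 CPM in neuron-led barcodes, a ratio of 4.09 (3.19 to 5.28). The distal gate over oligodendrocyte-led ratio was 1.14 (0.929 to 1.39), so a difference in Sall1 between the gate and oligodendrocyte-led barcodes was not detectable at this depth. Distal unclassified barcodes had 60.7 CPM, 5.02 times (3.47 to 7.22) the level of neuron-led ones, and the gate over unclassified ratio was 0.927 (0.669 to 1.30). Distal astrocyte-led barcodes had 39.1 CPM, 3.24 times (1.83 to 5.45) the neuron-led level, and their ratio to oligodendrocyte-led ones was 0.793 (0.464 to 1.27). In the 55 immune-led barcodes it had 160 CPM, 5.22 times (2.49 to 9.69) the level outside the gate.

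P2ry12 was nearly flat across the core. It had 19.2 CPM in the gate, 21.3 in neuron-led, 18.8 in oligodendrocyte-led, 17.1 in OPC-led and 18.4 in unclassified barcodes. P2ry12 lies inside Med12l, on the opposite strand, at chr3:59216272-59262871 of GRCm38, and whether reads were counted by strand was not given in the sources used here. Per 100 Med12l UMIs there were 5.63 P2ry12 UMIs (1.49 to 15.1) in the core gate and 5.35 (4.91 to 5.83) in core neuron-led barcodes. In the distal region there were 135 (69.2 to 270) in immune-led gated barcodes, 37.5 (32.0 to 43.9) in the whole gate and 12.7 (11.2 to 14.3) in neuron-led barcodes. Core neuron-led barcodes with a Med12l UMI had 23.2 CPM of P2ry12 (20.8 to 25.7), and those without had 18.5 CPM (16.1 to 21.3). The median depths of these 2 sets were 1824 and 1137 UMIs. Csf1r there had 2.24 CPM with a Med12l UMI and 1.20 CPM without, and Cx3cr1 had 4.67 CPM with and 5.63 CPM without. The intervals overlapped for both. In distal neuron-led barcodes P2ry12 had 47.9 CPM with and 34.3 CPM without, and Csf1r had 9.72 CPM with and 15.8 CPM without. The part of Med12l reads in the core P2ry12 counts was not tested further. The annotated span of Cx3cr1, chr9:119901616-120069879, likewise holds Gorasp1, Csrnp1 and Xirp1 on its own strand, so their reads could be shared. Gorasp1 had 6.69 CPM in the distal gate and 5.67 CPM in distal neuron-led barcodes, and Cx3cr1 had 83.1 CPM in the distal gate and 16.6 CPM in distal neuron-led barcodes.

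**Figure D3:**
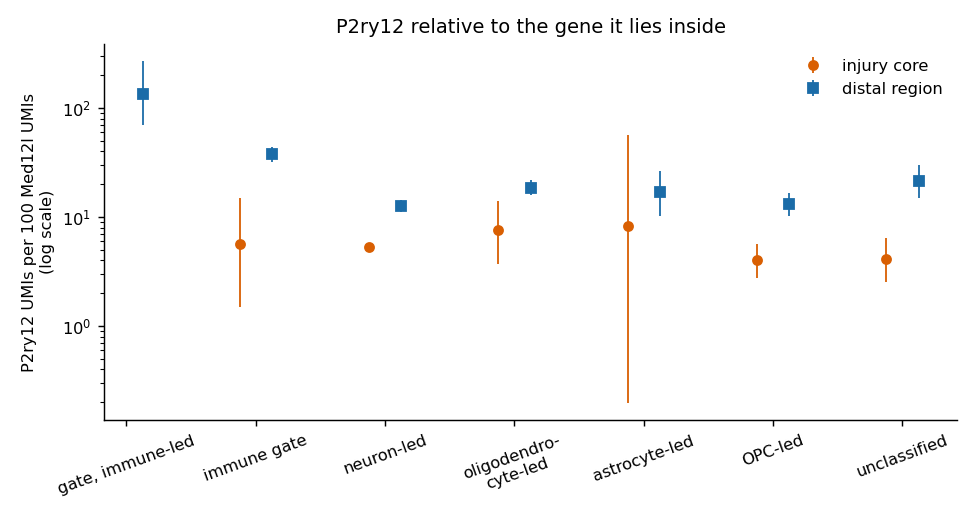
P2ry12 UMIs per 100 Med12l UMIs (log scale) by group of barcodes in the injury core and the distal region, with exact 95% intervals. The core gate sits at 5.63 and core neuron-led barcodes at 5.35, the distal gate at 37.5 and its immune-led barcodes at 135; the core had no immune-led barcode.

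The UMIs of each member per UMI of Csf1r differed between classes, read between groups for 1 gene at a time. Siglech stayed level, with 0.740 per Csf1r UMI in the distal gate (0.605 to 0.905), 0.757 in oligodendrocyte-led barcodes and 0.646 in neuron-led ones. Tmem119 did too, at 0.123 in the gate, 0.118 in oligodendrocyte-led and 0.190 in neuron-led barcodes, with overlapping intervals. P2ry12 departed most in neuron-led barcodes, with 3.67 per Csf1r UMI (2.85 to 4.77) against 0.936 (0.775 to 1.13) in the gate, and it also stood at 2.88 (1.24 to 7.43) in astrocyte-led and 1.76 (1.19 to 2.64) in OPC-led barcodes. Sall1 departed in oligodendrocyte-led barcodes, with 2.23 (1.83 to 2.73) against 0.609 (0.491 to 0.752) in the gate, and stood at 2.25 (0.931 to 5.98) in astrocyte-led barcodes. Mertk departed in astrocyte-led barcodes, with 15.6 (7.69 to 37.0) against 3.07 (2.65 to 3.57) in the gate, and in OPC-led barcodes, with 5.93 (4.26 to 8.43). Inpp5d had more UMIs per Csf1r UMI in the gate itself, with 2.78 (2.39 to 3.24), against 1.77 (1.55 to 2.04) over all barcodes outside.

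**Figure D4:**
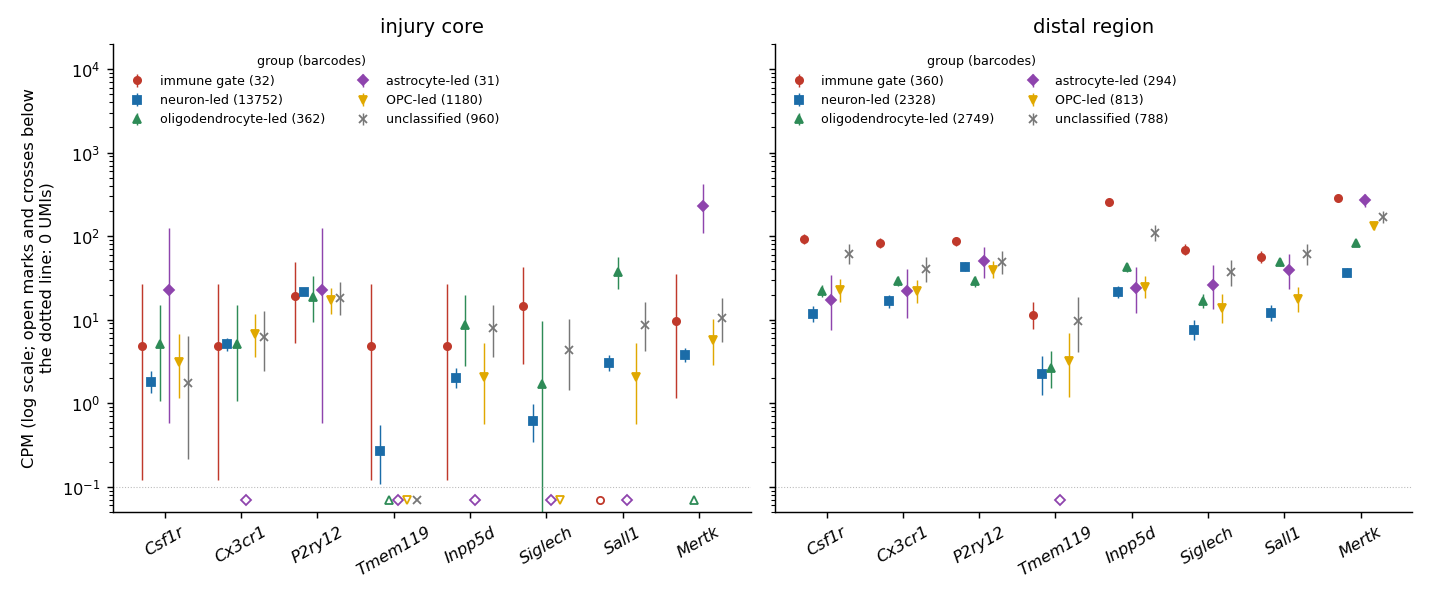
CPM of each member (log scale) with exact 95% intervals in the immune gate and in 5 groups of other barcodes, for the injury core and the distal region; marks below the dotted line stand for 0 UMIs. In the distal region the gate has the highest CPM of these groups for 7 of the 8 members. Sall1 is the exception, at 56.3 CPM in the gate and 60.7 CPM in unclassified barcodes. The gate over unclassified interval included 1 for Sall1, at 0.927 (0.669 to 1.30), and for Tmem119, at 1.20 (0.535 to 3.03). The gate over astrocyte-led interval included 1 for Mertk, at 1.05 (0.864 to 1.27). Mertk in astrocyte-led barcodes reaches 227 CPM in the core and 272 CPM in the distal region.

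Within the distal gate, 7 of 8 members were at least 2-fold higher in immune-led than in oligodendrocyte-led barcodes, where 17.2% of all genes were, and for Tmem119 the interval included 1. The 55 immune-led barcodes had 304 CPM of Csf1r, 288 of Cx3cr1, 368 of P2ry12, 1298 of Inpp5d, 176 of Siglech, 160 of Sall1 and 1201 of Mertk, and 1 UMI of Tmem119. Over the oligodendrocyte-led barcodes of the same gate the ratio was 3.35 (1.97 to 5.41) for Csf1r, 4.71 (2.89 to 7.36) for P2ry12, 5.46 (4.25 to 6.94) for Inpp5d and 4.48 (3.46 to 5.73) for Mertk. Oligodendrocyte-led barcodes inside the gate over those outside it gave ratios of 4.10 (3.25 to 5.17) for Csf1r, 5.62 (4.81 to 6.56) for Inpp5d and 1.22 (0.968 to 1.52) for Sall1. Neuron-led barcodes inside the gate over those outside it gave 6.32 (4.18 to 9.42) for Csf1r and 8.94 (6.85 to 11.6) for Inpp5d. The part of doublets and of free RNA in these barcodes was not tested.

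Barcodes outside the gate held a large part of the members' RNA. The distal gate had 13.3% of all UMIs of its library, and between 22.0% (Sall1) and 53.0% (Inpp5d) of each member's. The 788 unclassified distal barcodes, with a median of 796 UMIs, had 61.9 CPM of Csf1r, 110 of Inpp5d and 170 of Mertk. Their Csf1r was 5.25 times (3.63 to 7.55) that of neuron-led barcodes, and the gate was 1.49 times (1.10 to 2.06) theirs. The ratio of gate to other barcodes was also read within ranges of depth. Under 2000 UMIs the distal ratio was 8.62 (5.81 to 12.5) for Csf1r, 7.70 (5.11 to 11.3) for P2ry12 and 2.86 (1.54 to 4.91) for Sall1. Between 2000 and 5000 UMIs it was 8.98 (6.22 to 12.8) for Csf1r, 3.76 (2.64 to 5.22) for P2ry12 and 3.85 (2.61 to 5.53) for Sall1. At 5000 UMIs or more it was 8.01 (5.63 to 11.6) for Csf1r, 1.65 (1.32 to 2.06) for P2ry12 and 2.18 (1.62 to 2.95) for Sall1. Sall1 was thus at least 2-fold higher in the gate in all 3 ranges, though its ratio over all depths was 1.84. Other members also changed with depth. Csf1r lay above its ratio over all depths, 4.67, in each range. P2ry12, at 2.31 over all depths, was under 2-fold at 5000 UMIs or more. Tmem119 had 0 UMIs in the gate under 2000 UMIs, with an upper bound of the ratio of 5.89.

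Detection in single barcodes was compared with every barcode thinned to 1000 UMIs, which left 317 of 360 distal gated and 2011 of 2328 neuron-led barcodes. Mertk and Inpp5d were found in 29.3% and 29.7% of gated barcodes, against 3.18% and 1.94% of neuron-led ones, which should lack them. Csf1r was found in 12.6% of gated and 1.39% of neuron-led barcodes, and Cx3cr1 in 13.6% of gated and 1.49% of neuron-led ones. P2ry12 was found in 11.4% of gated and 3.68% of neuron-led barcodes, the highest neuron-led share of the 8. Siglech was found in 9.46% of gated and 0.895% of neuron-led barcodes, and Sall1 in 7.57% of gated and 1.29% of neuron-led ones. Tmem119 was found in 0.946% of gated and 0.249% of neuron-led barcodes. Before thinning, with medians of 3904 and 2149 UMIs, Inpp5d was found in 68.1% of gated and 4.81% of neuron-led barcodes, and Csf1r in 40.6% of gated and 3.09% of neuron-led ones. In the core, Siglech was found in 2 of 29 thinned gated barcodes, Csf1r, P2ry12 and Tmem119 in 1 each and Inpp5d, Cx3cr1, Sall1 and Mertk in 0 of 29. Sall1 was found in 0 of the 32 gated core barcodes as counted, which allows a share of barcodes with a UMI of up to 9.38% by a floor of 3 counts and of up to 10.9% by the exact interval.

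Members were found together in the distal gate. As counted, 328 of 360 gated barcodes had at least 1 member, 300 at least 2, 160 at least 4 and 4 all 8. The 4 barcodes with all 8 were oligodendrocyte-led and held 4394 to 33144 UMIs. Outside the gate 31.9% of distal barcodes had at least 1 member and 8.60% at least 2. At 1000 UMIs, 103 of 317 gated barcodes, 32.5%, had at least 2 members, against 158 of 5619 outside, 2.81%. The 29 immune-led barcodes of that depth averaged 2.28 members, the whole gate 1.15 and the barcodes outside 0.227. Inpp5d and Mertk shared 196 gated barcodes, 1.11 times the number expected if they were independent. As counted, all 28 pairs of members lay above that expectation, with a median of 1.22. The expectation does not allow for depth, and a deeper barcode is more likely to show both genes of a pair. At 1000 UMIs 19 of 28 pairs lay above it, and 4 pairs shared 0 barcodes. Inpp5d and Mertk shared 41 barcodes at that depth, 1.49 times the expected number. In the core, 2 of 32 gated barcodes had at least 2 members, 6.25% (0.766 to 20.8), and 0.337% of the others (0.254 to 0.438). Of the 909 distal barcodes with at least 2 members 33.0% were in the gate, and 295 had 0 gate UMIs.

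**Figure D5:**
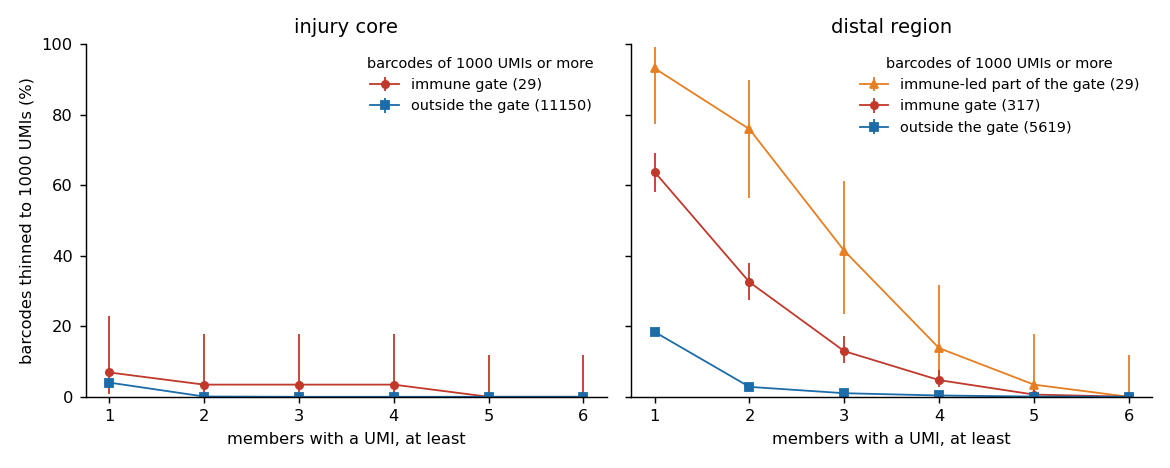
Share of barcodes (%) with a UMI of at least the given number of members, after thinning each barcode to 1000 UMIs, with exact 95% intervals, for the injury core and the distal region. In the distal region 32.5% of gated and 2.81% of other barcodes have at least 2 members; the core has no immune-led barcode and 1 gated barcode with 2 or more.

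Other genes of the microglial programme were read from lists in the same distal comparison. In that comparison 3.95% of all genes tested were at least 2-fold higher in the gate. Of 20 further homeostatic genes, 14 were at least 2-fold higher in the gate and 0 lower, with a median log2 ratio of 1.81. The largest were Slc2a5, a fructose transporter (6.90), Itgam, the integrin CD11b (5.32), Selplg (5.10) and Trem2, a lipid-sensing receptor (4.33). Cst3 (0.938) and Sparc (1.05) had intervals that included 1. Of 8 myeloid transcription factors 7 were higher, with a median of 2.12. Irf8 (7.20), Ikzf1 (5.97), Runx1 (5.35) and Spi1 (4.89), the factor PU.1, led them, and Maf reached 1.54. Of 11 tested ligands and partners 6 were higher, with Syk (5.90), Tgfbr2 (3.13), Pros1, a Mertk ligand (3.02), and Tgfb1 (2.64) largest. The ligands Csf1 (1.02), Il34 (0.945), Cx3cl1 (0.998) and Gas6 (0.917) had intervals that included 1. Of 6 complement genes 5 were higher, among them Itgb2 (6.50), C3ar1 (5.85), C1qb (3.99) and C1qa (2.22), and 1, C3, was lower at 0.368, where 6.27% of all genes tested were at least 2-fold lower.

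Markers of other immune cells and states were measured in the same gate, where 3.95% of all genes tested were at least 2-fold higher. Of 6 tested phagocyte lipid and activation genes 1 was higher, Lpl (4.33), the list's median was 0.0089, and Apoe stood at 0.636. Of 6 border macrophage genes 4 had enough UMIs and all 4 were higher: Stab1 (3.75), Cd163 (3.25), Mrc1 (2.81) and F13a1 (2.49). Their summed level was 55.5 CPM in the gate and 18.7 CPM outside, and Pf4 was at 0 in the gate. T cell genes gave 1 of 5, Cd247 (3.07), with Cd3e at 0 in the gate. B cell genes gave 2 of 3, Bank1 (3.52) and Pax5 (2.24), with Ms4a1 lower at 0.419, and the intervals of Pax5 and Ms4a1 included 1. The dividing list gave 1 of 4, Top2a (2.22). The neutrophil list gave 0 of 1 and no monocyte gene had enough UMIs, at summed levels of 2.76 CPM and 2.36 CPM in the gate. The part of these cells in the members' levels was not tested. In the core gate C1qa, C1qb, C1qc, Trem2 and Selplg were at 0 UMIs, and Runx1 had 8 and Tgfbr1 9. Of the 20 further homeostatic genes, 14 had at least 20 UMIs over both gates. All 14, and 7 of 8 transcription factors, were at least 2-fold lower in the core gate than in the distal gate, where 28.8% of all genes were. The core gate held 207811 UMIs and the distal gate 2540042, so genes reached 20 UMIs mainly through the distal gate. That filter favours genes that are high there. Gas6, the other Mertk ligand, was 2.97 times (1.64 to 5.10) higher in the core gate, where 11.1% of all genes were at least 2-fold higher.

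Gated distal barcodes with at least 2 UMIs of the phagocyte lipid genes (141 barcodes, median 8572 UMIs) were set against those with 0 (119 barcodes, median 2121 UMIs). Inpp5d had 190 CPM with those genes and 416 CPM without, and P2ry12 had 69.1 CPM with them and 132 CPM without. Csf1r had 81.7 CPM with them and 103 CPM without, with overlapping intervals. Tmem119 had 23 UMIs with them and 0 without. Among immune-led barcodes alone, 8 with and 32 without, the medians were 1236 and 948.5 UMIs and the intervals of all 8 members included 1, with ratios of 0.759 (0.388 to 1.39) for Inpp5d and 0.345 (0.0385 to 1.47) for P2ry12. The depth of the 2 sets differed, and its part in these differences was not tested.

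Over 10 points, the groups of at least 50 barcodes in each library, the genes whose log2 level followed the members' mean most closely were Gm2245 (Pearson r 0.992), AU020206 (0.992), Tgfbr1 (0.990), Cyth4 (0.988), Runx1 (0.987), Itgam (0.984), Selplg (0.983), Zcchc8 (0.982), Entpd1 (0.981) and Ly86 (0.980). Among the members themselves r was highest for Siglech (0.989) and lowest for Sall1 (0.817) and Tmem119 (0.866). Each member is part of the mean it is set against, which raises its r, so these values do not compare with those of other genes. These points share their libraries and differ in depth, so r is a description only. Over all genes with at least 50 UMIs in the distal gate, leaving out the gate genes, the largest gate-over-other ratios were those of Abi3 (8.06), Arhgap25 (7.74), A830008E24Rik (7.49), Nlrp1b (7.43) and Inpp5d.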

How the data were processed

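Nuclei were profiled with 10x Genomics 3′ chemistry per the labels' protocols. Raw UMI counts fill the deposited matrices, 1 per gene and barcode, written by Cell Ranger 7.1.0 per the file headers. Cell Ranger, Seurat, GRCh38 and mm10 are named without a role in the submitters' processing notes, and the annotation was not given in the sources used here. The lowest total of a barcode was 500 UMIs in both libraries.

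Kept barcodes had 300 or more genes and no more than 5% mitochondrial UMIs. Barcodes outside the gate went to the class with most UMIs over its 4 markers (at least 3, ties unclassified). CPM carry exact Poisson intervals, shares exact Clopper-Pearson intervals and ratios exact conditional intervals, computed with scipy 1.17.1, pandas 2.3.3 and numpy 2.4.6 in Python 3.11.15. PCR and free RNA are not covered by them. A call needed a 2-fold ratio and at least 20 UMIs over both groups. No doublet caller was run. Thinning to 1000 UMIs left out shallower barcodes. TMM factors came from edgeR 4.0.16 in R 4.3.3 as an alternative scaling of the summed counts, and no model was fitted. The 2-fold rule was tried on simulated Poisson counts for the distal gate over other barcodes only, among well-counted genes. Calls in the core gate, with few UMIs, were not simulated.

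The 8 members and the lists were chosen with earlier results of these data known. List genes were named by rule, at most 4 per direction and list by ratio; Cst3, Sparc, Maf, Apoe, Mef2c, Gas6 and the other ligands, Runx1 and Tgfbr1 in the core and the genes at 0 were chosen after their values were seen. The 10 most alike genes were ranked by Pearson r of log2(CPM + 5), among 7231 genes with at least 50 UMIs in the distal gate, and the 5 largest ratios are given. Positions are from GENCODE M21 on GRCm38. Alternatives are in the closing section.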

Additional observations from a re-analysis of the deposited data

Results flagged for a closer look

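3 members went opposite ways in the same contrast, gated over other barcodes, in the 2 libraries. Cx3cr1 had a ratio of 0.927 (0.0233 to 5.24) in the core, from 1 UMI in the gate, and 3.54 (2.98 to 4.20) in the distal region. P2ry12 had 0.924 (0.251 to 2.38) in the core, from 4 UMIs, and 2.31 (1.97 to 2.70) in the distal region. Sall1 had a ratio of 0 in the core, from 0 UMIs, with an upper bound of 4.66, and 1.84 (1.51 to 2.21) in the distal region. With 1 library per region the difference between the libraries was not tested, and each core interval includes 1.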

How the results depend on the processing

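No paired analysis was possible because each region gave 1 library. The alternatives with at least 1 gate UMI per 1000 UMIs, without the shared barcodes and with other barcodes weighted to the gate's depth were chosen after seeing the data.

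Of 76 values that answer a comparison under an alternative, 60 stayed within the interval of the reported value or within 1.5 times the reported count. The core over distal ratio of gated shares was 0.0986 with a gate of 2 UMIs, 0.00892 with a gate of 5 UMIs, 0.00945 without Arhgap15 and 0 in immune-led barcodes, where the core had none. The members at least 2-fold higher in the distal gate numbered 7 or 8 under every alternative run, and for Sall1 the ratio ran from 1.61 to 4.76. In the core the 3 such members became 0 with a gate of 5 UMIs, 1 without Ptprc and 0 without Dock8. The 8 members at least 2-fold lower in the core gate became 4 without Arhgap15. The distal share with at least 2 members, 83.3%, was 67.3% with a gate of 2 UMIs, 90.8% with 5, 90.0% without Arhgap15, 65.5% in immune-led barcodes, 76.6% with at least 1 gate UMI per 1000 UMIs and 32.5% after thinning to 1000 UMIs. The core share, 6.25%, was 0% with a gate of 5 UMIs and 0% without Dock8.

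Single ratios that changed direction were those of the core gate, with few UMIs. Over other core barcodes the ratio became 0 for Csf1r, Tmem119 and Siglech with a gate of 5 UMIs, without Ptprc and without Dock8, and 0 for Mertk with a gate of 5 UMIs, without Dock8 and without Arhgap15. Over the distal gate, without Arhgap15, it became 6.64 for Tmem119 and 3.18 for Siglech, and with at least 1 gate UMI per 1000 UMIs it became 3.23 for Tmem119. The cause was not tested. The share of all genes called rose without a minimum of UMIs to 9.34% in the distal gate over other barcodes. Without the 38 shared barcodes each of these values stayed within its interval or within 1.5 times its count. Immune-led barcodes gave no core value for the ratios and co-detection. Depth limits Tmem119 most, with 8 UMIs in the core library and 76 in the distal one.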
